A study of Homo sapiens with 3 samples.

Results

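The clade B serpins are a family of intracellular protease inhibitors, and 10 of their genes (SERPINB1 to SERPINB9 and SERPINB13) were followed here in MCF10Ca1h cells, a long-established line of human breast cancer. The genes were chosen by symbol and matched to Ensembl gene IDs, and 10 of 10 were found among the 56632 gene IDs of each deposited table. Of these, 6 reached 1 CPM (counts scaled to library size) in every library and 4 stayed below 1 CPM in every library. Of all IDs, 13312 reached 1 CPM in at least 1 library.

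RNA was sequenced in 3 libraries of the same line, grown in medium with 5% horse serum, with 1 library for each group. The GSK484 library came from cells given GSK484, an inhibitor of the protein arginine deiminase PADI4, for 72 h. The CON library came from cells kept with a control compound for 72 h, and the NT library from untreated cells, for which no time is given. The labels' treatment text calls the control compound GSK107 and the name of the deposited table calls it GSK106. Doses are not given, and all groups come from the same cell line, so the results describe 1 line only. With 1 library per group there is no replicate spread and no test. Every interval below is a 95% interval of counting error between single libraries, and a difference beyond it is a difference between those libraries.

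Serpins act as suicide substrates. A protease cuts an exposed loop of the serpin, stays covalently bound to it and is carried with it into an inactive complex. Clade B members lack a classical secretion signal and mostly remain in the cytoplasm, where they protect the cell from its own proteases or from those delivered by immune cells. SERPINB1, which inhibits neutrophil elastase, cathepsin G and proteinase 3, SERPINB6, which inhibits cathepsin G, and SERPINB9, the inhibitor of granzyme B, lie in a cluster on chromosome 6 at 6p25. The others lie in a cluster on chromosome 18 at 18q21. Among them SERPINB5, or maspin, does not inhibit proteases in the usual way and is known as a tumour suppressor of mammary epithelium.

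The promoters of 4 members are shown because SERPINB1 and SERPINB6 were higher and SERPINB5 lower in both libraries of treated cells than in NT, and SERPINB8 is the next most abundant member of the SERPINB5 cluster. Each is a window of 300 bases around a RefSeq transcription start, read on the strand of the gene, in GRCh38.p14, a later build than the hg19 named for the deposited values. Capitals mark matches, on either strand and with overlaps allowed, to a TATA box (TATAAA), a GC box (GGGCGG), an AP-1 site (TGANTCA) or an ETS site (CCGGAA). SERPINB1 lies at chr6:2841814-2842113 on the minus strand, the shown start of SERPINB6 at chr6:2971240-2971539 on the minus strand, SERPINB5 at chr18:63476708-63477007 on the plus strand and SERPINB8 at chr18:63969831-63970130 on the plus strand.
SERPINB1: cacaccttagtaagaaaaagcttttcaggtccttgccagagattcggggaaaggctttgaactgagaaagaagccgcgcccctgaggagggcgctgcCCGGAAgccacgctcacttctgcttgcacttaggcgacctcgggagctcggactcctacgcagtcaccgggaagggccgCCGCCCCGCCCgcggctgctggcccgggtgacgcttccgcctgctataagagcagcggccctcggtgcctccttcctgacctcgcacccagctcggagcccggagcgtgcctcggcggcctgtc
SERPINB6: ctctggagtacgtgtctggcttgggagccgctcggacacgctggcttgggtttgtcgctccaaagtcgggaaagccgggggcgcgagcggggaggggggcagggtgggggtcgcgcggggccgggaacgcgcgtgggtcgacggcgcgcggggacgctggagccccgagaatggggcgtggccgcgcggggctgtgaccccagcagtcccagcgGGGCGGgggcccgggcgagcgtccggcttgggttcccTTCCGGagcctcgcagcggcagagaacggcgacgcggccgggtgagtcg
SERPINB5: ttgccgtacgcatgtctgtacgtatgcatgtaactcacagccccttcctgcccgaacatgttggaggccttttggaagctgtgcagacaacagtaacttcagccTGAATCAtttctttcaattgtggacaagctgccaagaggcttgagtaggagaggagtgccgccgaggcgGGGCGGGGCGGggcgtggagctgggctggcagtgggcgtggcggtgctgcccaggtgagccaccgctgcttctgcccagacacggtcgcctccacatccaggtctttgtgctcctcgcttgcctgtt
SERPINB8: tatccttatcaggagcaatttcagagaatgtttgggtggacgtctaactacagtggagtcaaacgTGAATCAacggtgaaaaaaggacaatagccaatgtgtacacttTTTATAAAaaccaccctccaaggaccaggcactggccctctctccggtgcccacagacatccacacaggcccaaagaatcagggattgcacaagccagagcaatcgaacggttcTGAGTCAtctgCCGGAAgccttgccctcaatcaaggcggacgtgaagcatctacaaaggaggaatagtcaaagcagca

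All 10 members had a promoter entry, 15 entries in all, since SERPINB6 and SERPINB7 have several starts. The SERPINB1 window had a GC content of 65.7% with 27 CG dinucleotides and the SERPINB6 window shown 75.7% with 43. The SERPINB6 windows not shown had 76.7% with 45, 68.7% with 32 and 47.7% with 7. The last of these has a TATA box and no GC box or ETS site. The SERPINB5 window had 59.7% with 16 and the SERPINB8 window 48.7% with 9. Across 35116 promoters of the same length the median was 58.7% with 14 CG. A GC box was found in at least 1 window of all 3 members at 6p25 and of 1 of 7 members at 18q21, SERPINB5, beside 45.0% of all promoters. An AP-1 site was found in 0 of 3 members at 6p25 and in 5 of 7 at 18q21, namely SERPINB2, SERPINB5, SERPINB7, SERPINB8 and SERPINB13, beside 7.71% of all promoters. An ETS site was found in SERPINB1, SERPINB6 and SERPINB8, beside 17.2% of all promoters. A TATA box was found in SERPINB2, SERPINB6, SERPINB7, SERPINB8, SERPINB9 and SERPINB13, beside 11.5% of all promoters. The SERPINB6 start shown has none. These are matches of letters, and binding at them was not measured. SERPINB6 and SERPINB7 were counted where any of their several windows matched, whereas the shares of all promoters count single windows, so the measures differ for these genes.

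SERPINB5 was the most abundant member per transcript length in every library. Its level was 147 TPM (the deposited abundance per transcript length, scaled to the same total in each library) in GSK484, 130 TPM in CON and 161 TPM in NT, which placed it above 92.8%, 92.1% and 93.6% of measured genes. SERPINB6 followed with 86.3 TPM in GSK484, 80.1 TPM in CON and 76.6 TPM in NT. SERPINB1 came next with 34.9 TPM in GSK484, 31.5 TPM in CON and 30.4 TPM in NT. The other measured members were SERPINB8, which inhibits furin, SERPINB7, a skin serpin mutated in an inherited palmoplantar keratosis, and SERPINB3, a squamous cell carcinoma antigen that inhibits papain-like cathepsins. They followed in this order in all 3 libraries, with 19.6, 4.56 and 0.93 TPM in GSK484, 16.1, 3.81 and 0.76 TPM in CON, and 18.9, 4.23 and 1.22 TPM in NT, so the order of the 6 measured members did not change between libraries. Of the summed TPM of the 10 members SERPINB5 made up 50.0% in GSK484, 49.4% in CON and 55.0% in NT. The share of SERPINB6 was 29.4% in GSK484, 30.5% in CON and 26.1% in NT. By counts the share of SERPINB5 was 65.8% in GSK484 (exact binomial interval 65.3% to 66.2%), 65.1% in CON (64.7% to 65.6%) and 69.4% in NT (68.9% to 69.9%). The SERPINB5 share was therefore highest in the untreated library on both scales. Over all measured genes the TPM scale itself gave a median log2 fold of 0.10 for GSK484 against CON and -0.08 for CON against NT, so the comparisons below use CPM.

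**Figure D1:**
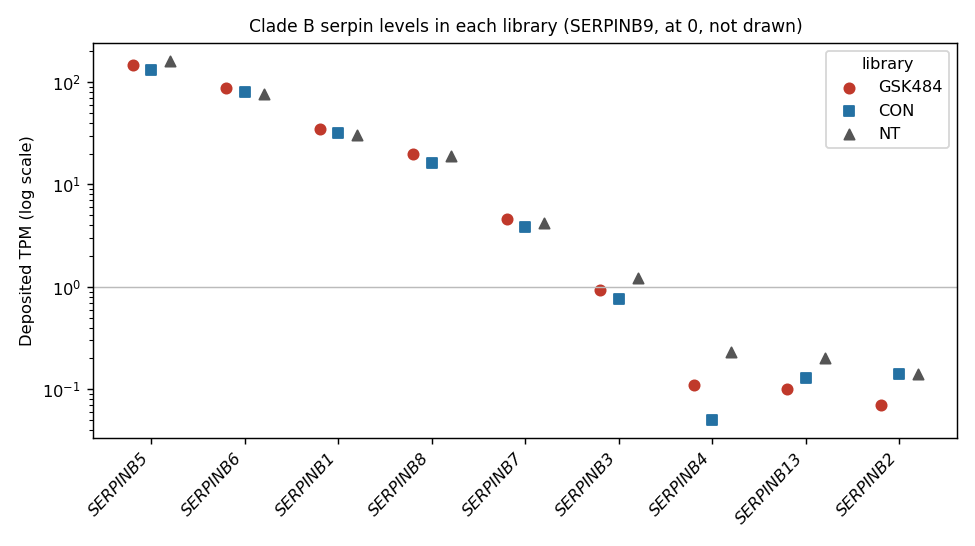
Deposited TPM of 9 clade B serpins in each library on a log axis, with SERPINB9 left out because it was listed at 0. SERPINB5 has 147 TPM in GSK484, 130 TPM in CON and 161 TPM in NT, and the members keep the same order down to SERPINB3, with SERPINB4, SERPINB13 and SERPINB2 near 0.1 TPM.

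GSK484 against CON sets the inhibitor beside the control compound at the same time, and here no measured member reached the size minimum. This minimum, used in place of a test, is a log2 fold of 0.32 in either direction (a ratio of 5 to 4) with a counting interval that leaves out no difference and at least 1 CPM in the higher library. Scaled counts of SERPINB5 (ENSG00000206075) were 324 CPM in GSK484 and 311 CPM in CON, a log2 fold of 0.06 (interval 0.04 to 0.09). SERPINB8 (ENSG00000166401) had 26.2 CPM in GSK484 and 24.4 CPM in CON, a log2 fold of 0.10 (0.01 to 0.19). Both were higher in GSK484 by less than the size minimum, and both intervals left out no difference. SERPINB1 (ENSG00000021355) had 44.0 CPM in GSK484 and 43.9 CPM in CON, a log2 fold of 0.00 (-0.06 to 0.07). SERPINB6 (ENSG00000124570) had 90.1 CPM in GSK484 and 89.7 CPM in CON, a log2 fold of 0.01 (-0.04 to 0.05). For this pair of inhibitors of neutrophil proteases the intervals leave room for differences of at most 0.07 on the log2 scale, counting error alone considered. The values rest on 25254 counts of SERPINB5, 7020 of SERPINB6, 3428 of SERPINB1 and 2037 of SERPINB8 in GSK484, and on 28333, 8183, 4004 and 2227.62 in CON. SERPINB7 (ENSG00000166396) had 6.87 CPM in GSK484 and 6.54 CPM in CON, a log2 fold of 0.07 (-0.10 to 0.24), and SERPINB3 (ENSG00000057149) had 1.27 CPM in GSK484 and 1.12 CPM in CON, a log2 fold of 0.19 (-0.23 to 0.60).

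Among all 13199 genes tested for GSK484 against CON, 9.0% were past the size minimum as higher in GSK484 and 4.45% as lower, beside 0 of 6 measured members in either direction. At 2-fold the share was 0.47% of genes in either direction, beside 0 members. An interval that left out no difference, whatever the size, was found for 54.3% of genes, beside 2 of 6 members, SERPINB5 and SERPINB8. The median log2 fold of the 6 members was 0.07, against -0.01 over all genes, and all 6 point estimates lay above 0. The median absolute log2 fold over all genes was 0.11, above the log2 fold of each measured member other than SERPINB3.

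Relative to NT, SERPINB1 and SERPINB6 were higher in both libraries of treated cells. SERPINB1 had 44.0 CPM in GSK484 and 43.9 CPM in CON, against 40.0 CPM in NT. Its log2 fold was 0.14 (0.06 to 0.21) for GSK484 against NT and 0.13 (0.06 to 0.20) for CON against NT. SERPINB6 had 90.1 CPM in GSK484 and 89.7 CPM in CON, against 79.7 CPM in NT. Its log2 fold was 0.18 (0.13 to 0.23) for GSK484 against NT and 0.17 (0.12 to 0.22) for CON against NT. In percent, SERPINB1 was 9.93% higher in GSK484 and 9.63% higher in CON than in NT, and SERPINB6 was 12.5% higher in CON than in NT. The comparisons with NT share the NT library, so a high or low value in that library enters both.

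SERPINB5 was lower in both libraries of treated cells than in NT. It had 324 CPM in GSK484 and 311 CPM in CON, against 354 CPM in NT, with a log2 fold of -0.13 (-0.15 to -0.10) for GSK484 against NT and -0.19 (-0.21 to -0.17) for CON against NT. SERPINB8 had 26.2 CPM in GSK484 and 24.4 CPM in CON, against 27.6 CPM in NT. Its log2 fold was -0.08 (-0.17 to 0.01) for GSK484 against NT and -0.18 (-0.26 to -0.09) for CON against NT, so that only the interval for CON left out no difference. SERPINB7 had 6.87 CPM in GSK484 and 6.54 CPM in CON, against 6.55 CPM in NT, with log2 folds of 0.07 (-0.11 to 0.25) and 0.00 (-0.18 to 0.18). On the TPM scale the sign of SERPINB8 for GSK484 against NT was positive, at 0.05. The effective length that the authors' tables give this gene, which enters TPM but not CPM, was 1559 bases in GSK484, 1640 in CON and 1711 in NT.

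SERPINB3 was the only measured member past the size minimum in any of the 3 comparisons. It had 1.27 CPM in GSK484 and 1.12 CPM in CON, against 1.65 CPM in NT, from 99, 101.94 and 117.85 expected counts. For CON against NT its fold was 0.677, a log2 fold of -0.56 (-0.96 to -0.17). For GSK484 against NT the log2 fold was -0.38 (-0.78 to 0.02), and that interval takes in no difference. The call for CON was lost with a minimum of 10 CPM, which SERPINB3 does not reach, and with the GC trend described below removed.

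For GSK484 against NT, 5.09% of 13209 genes were past the size minimum as higher and 7.38% as lower, beside 0 of 6 members in each direction. For CON against NT, 6.91% of 13221 genes were past it as higher and 14.5% as lower, beside 0 and 1 of 6 members. The 2-fold shares were 0.553% and 1.68% of genes, beside 0 members in both. Intervals that left out no difference were found for 56.8% of genes with GSK484 against NT, beside 3 of 6 members (SERPINB1, SERPINB5 and SERPINB6), and for 64.9% with CON against NT, beside 5 of 6 (all but SERPINB7). The members' median log2 fold was 0.00 for GSK484 against NT, against 0.00 over all genes, and -0.09 for CON against NT, against 0.03 over all genes. These counts of members lie near the background shares of the same libraries and are no result about the members. The point estimates lay above 0 for 3 members and below 0 for 3 with GSK484 against NT, and above 0 for 2 and below 0 for 4 with CON against NT. Over all genes the median absolute log2 fold was 0.13 for GSK484 against NT and 0.16 for CON against NT. In the same order SERPINB1 had 0.14 and 0.13, and SERPINB6 had 0.18 and 0.17.

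**Figure D2:**
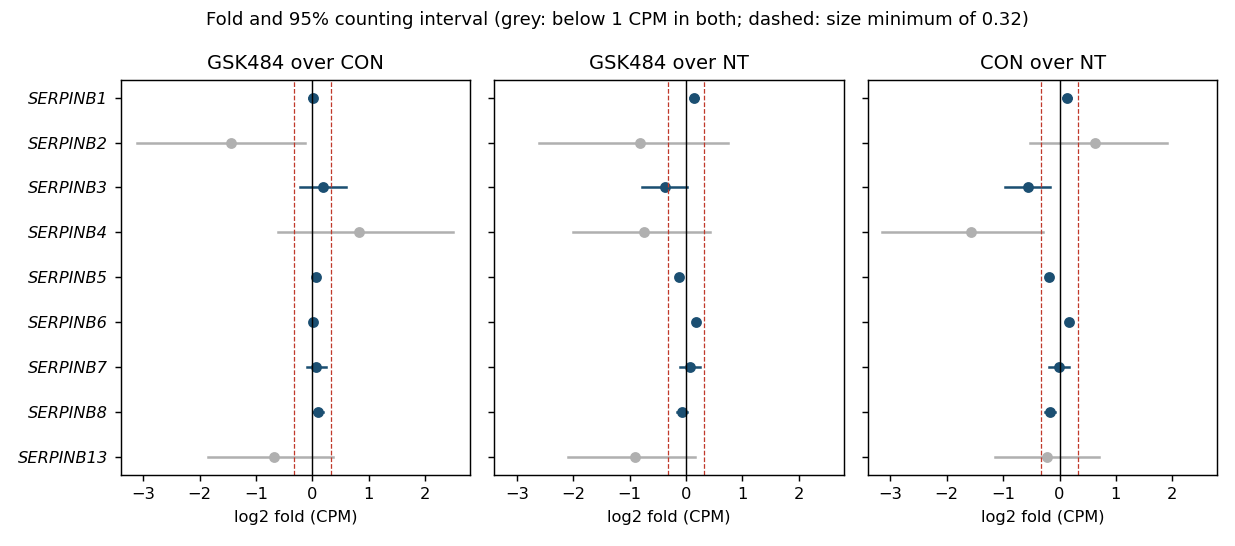
Log2 fold of scaled counts with its 95% counting interval for 9 members, in panels for GSK484 over CON, GSK484 over NT and CON over NT. Dashed lines mark the size minimum of 0.32 and grey points the members below 1 CPM in both libraries, and SERPINB1 and SERPINB6 sit right of 0 and SERPINB5 left of 0 in both panels relative to NT.

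Ratios of counts within a library do not depend on library scaling, and those between summed clusters differed from NT. The summed counts of the 3 members at 6p25 were 0.374 times those of the 7 members at 18q21 in GSK484, 0.389 times in CON and 0.307 times in NT. The log2 ratio of GSK484 to NT in this quantity was 0.29 (0.24 to 0.33), that of CON to NT was 0.34 (0.30 to 0.39), and that of GSK484 to CON was -0.06 (-0.10 to -0.01). The ratio was thus lowest in NT, and GSK484 and CON lay closer to each other than to NT. Without SERPINB5, which holds most counts of its cluster, the ratio was 3.87 in GSK484, 4.09 in CON and 3.29 in NT. The log2 ratios to NT were then 0.24 (0.15 to 0.32) for GSK484 and 0.32 (0.23 to 0.40) for CON. SERPINB8 held 2037 of the remaining 2700 counts at 18q21 in GSK484, and SERPINB9 added 0 counts at 6p25. The trend on GC content described below was not removed from the ratios between clusters.

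For SERPINB6 and SERPINB5, the 2 most abundant members, the count ratio was 0.278 in GSK484, 0.289 in CON and 0.225 in NT. Its log2 ratio was 0.30 (0.25 to 0.36) for GSK484 against NT and 0.36 (0.30 to 0.41) for CON against NT. For GSK484 against CON it was -0.055 (-0.107 to -0.003). For SERPINB1 and SERPINB5 the ratio was 0.136 in GSK484, 0.141 in CON and 0.113 in NT. Its log2 ratio was 0.26 (0.19 to 0.34) for GSK484 against NT, 0.32 (0.25 to 0.40) for CON against NT and -0.06 (-0.13 to 0.01) for GSK484 against CON. The count ratio of SERPINB1 to SERPINB6 was 0.488 in GSK484, 0.489 in CON and 0.502 in NT, with log2 ratios to NT of -0.04 (-0.13 to 0.05) and -0.04 (-0.12 to 0.05). The count ratio of SERPINB8 to SERPINB5 was 0.0807 in GSK484, 0.0786 in CON and 0.0779 in NT, with log2 ratios to NT of 0.05 (-0.04 to 0.14) and 0.01 (-0.08 to 0.10). The intervals of these 2 pairs, each within 1 cluster, include no difference and leave room for differences of up to 0.14 on the log2 scale. Not every pair within 18q21 was alike. The log2 folds against NT of SERPINB3 were -0.38 and -0.56 and those of SERPINB7 0.07 and 0.00, beside -0.13 and -0.19 for SERPINB5. Ratios of single genes with SERPINB3 or SERPINB7 were not taken, and both pairs taken across the clusters hold SERPINB5. Between GSK484 and CON the log2 ratios were 0.00 (-0.08 to 0.08) for SERPINB1 to SERPINB6 and 0.04 (-0.05 to 0.13) for SERPINB8 to SERPINB5.

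**Figure D3:**
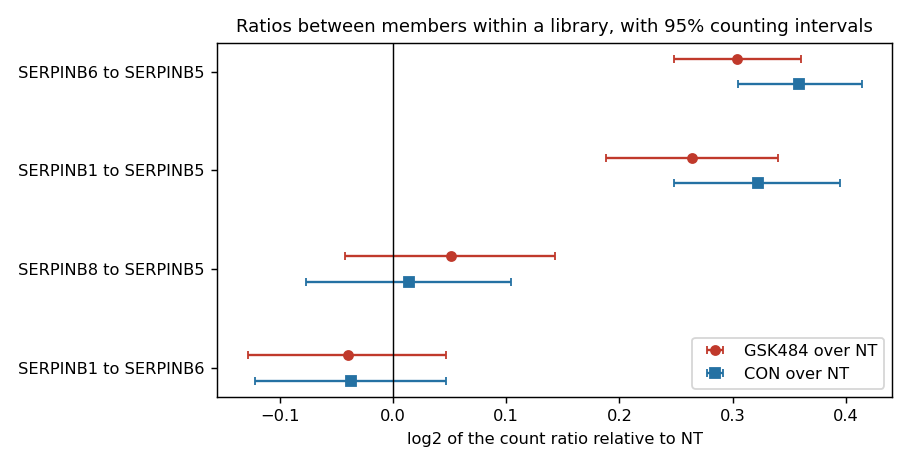
Log2 of the ratio of counts of 4 pairs of members relative to the same ratio in NT, with 95% counting intervals, for GSK484 and for CON. The pairs drawn across the clusters, SERPINB6 to SERPINB5 and SERPINB1 to SERPINB5, both hold SERPINB5 and lie between 0.26 and 0.36. The intervals of SERPINB8 to SERPINB5 and SERPINB1 to SERPINB6 include 0. No pair with SERPINB3 or SERPINB7 is drawn.

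Across all genes the folds against NT moved with the GC content of the transcript. Among genes of at least 10 CPM, the sixth with the lowest GC content (31.3% to 40.5%) had a median log2 fold of -0.15 for GSK484 against NT and -0.29 for CON against NT, and the sixth with the highest had 0.12 and 0.14. For GSK484 against CON the lowest sixth had 0.14 and the highest -0.01. The measured members lie in the lower part of this range. The GC content is 44.9% for SERPINB1, 43.5% for SERPINB6, 42.3% for SERPINB8, 41.6% for SERPINB5, 40.5% for SERPINB7 and 39.7% for SERPINB3, and the mean of the measured members is 44.2% at 6p25 and 41.0% at 18q21.

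With a smooth trend on GC content and effective length removed, the log2 fold of SERPINB5 was -0.01 (-0.04 to 0.01) for GSK484 against NT, 0.01 (-0.02 to 0.03) for CON against NT and -0.02 (-0.04 to 0.01) for GSK484 against CON. Its differences between libraries were therefore as large as those of genes of like GC content and length, within counting error. SERPINB6 kept values of 0.21 (0.16 to 0.26) for GSK484 against NT and 0.17 (0.12 to 0.22) for CON against NT. SERPINB1 kept 0.17 (0.10 to 0.24) and 0.13 (0.06 to 0.20). SERPINB7, measured less precisely, had 0.17 (-0.01 to 0.35) in both comparisons. SERPINB3 had -0.27 (-0.68 to 0.12) and -0.38 (-0.78 to 0.01), and SERPINB8 had -0.01 (-0.10 to 0.08) and -0.09 (-0.17 to 0.00). Relative to NT, the values of SERPINB1 and SERPINB6 thus remained beyond counting error, and the intervals of the other 4 measured members included no difference. For GSK484 against CON the 6 values lay between -0.02 and 0.10, and all 6 intervals included no difference. The log2 ratio of SERPINB6 to SERPINB5 was then 0.22 for GSK484 against NT, 0.165 for CON against NT and 0.06 for GSK484 against CON, the last with its sign reversed.

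**Figure D4:**
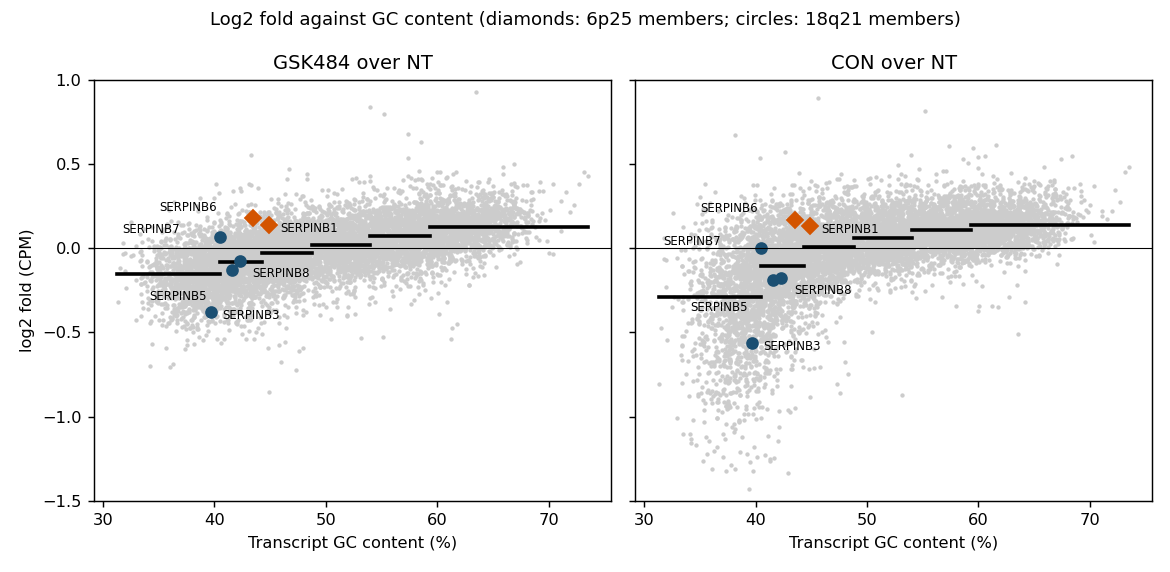
Log2 fold of scaled counts against transcript GC content for GSK484 over NT and CON over NT, with grey points for genes of at least 10 CPM and black bars for the median of each sixth of GC content (1 gene lies outside the axis for CON over NT). SERPINB1 and SERPINB6 (diamonds, 6p25) lie above the bar of their GC content, and SERPINB5 (circle, 18q21) lies close to it.

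The members below 1 CPM were at or near the limit of detection. SERPINB9, which protects cytotoxic lymphocytes from their own granzyme B, had 0 counts in GSK484, CON and NT. The limit that such a 0 sets, 3 counts, corresponds to 0.0385 CPM in GSK484, 0.0329 CPM in CON and 0.0421 CPM in NT. SERPINB10, SERPINB11 and SERPINB12, clade B genes outside the 10 followed here, were also at 0 in all 3 libraries. SERPINB2, the urokinase inhibitor also called plasminogen activator inhibitor type 2, was given 6 reads in GSK484, 20 reads in CON and 10 reads in NT. Its log2 fold was -1.44 (-3.12 to -0.14) for GSK484 against CON, -0.82 (-2.61 to 0.74) for GSK484 against NT and 0.62 (-0.52 to 1.90) for CON against NT. The first of these left out no difference, at 0.0770 CPM in GSK484 and 0.219 CPM in CON, below the minimum of 1 CPM. SERPINB13, an inhibitor of cathepsins L and K also called headpin, was given 12 reads in GSK484, 23 reads in CON and 21 reads in NT, or 0.154 CPM in GSK484, 0.252 CPM in CON and 0.295 CPM in NT. Its log2 fold was -0.69 (-1.85 to 0.36) for GSK484 against CON, -0.91 (-2.09 to 0.15) for GSK484 against NT and -0.22 (-1.14 to 0.70) for CON against NT, and all 3 intervals include no difference. Whether fewer cells carry these transcripts or each cell carries less cannot be told apart in bulk RNA.

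SERPINB3 and SERPINB4 are neighbouring near-copies, and reads of one can be assigned to the other. Their coding sequences (ENST00000283752.9 and ENST00000341074.9, GENCODE release 29) both have 1170 bases, differ at 56 of them and are 95.2% identical. The stretch of 60 coding bases that differs most, bases 952 to 1011 counted from the start codon, is printed because it holds 10 of the differences that tell the copies apart, in capitals. Both genes are on chromosome 18, on the minus strand.
SERPINB3: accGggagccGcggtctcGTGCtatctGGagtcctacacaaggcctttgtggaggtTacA
SERPINB4: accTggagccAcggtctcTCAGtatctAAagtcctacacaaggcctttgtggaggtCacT

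Of 1653 windows of 125 bases, the read length, in the SERPINB3 transcript, 5 (0.302%) also occur in SERPINB4, and no other member shared any window of that length with another member. The next closest pair was SERPINB8 and SERPINB9, with 73.1% identity of coding sequence. The promoters of SERPINB3 and SERPINB4 were identical at 296 of 300 bases (98.7%), with 3 and 2 CG dinucleotides and no match to any of the 4 motifs. SERPINB4, which inhibits cathepsin G and mast cell chymase, had 11 expected counts in GSK484, against 7.06 in CON and 17.15 in NT, or 0.141 CPM in GSK484, 0.0774 CPM in CON and 0.241 CPM in NT. Its log2 fold was 0.82 (-0.62 to 2.48) for GSK484 against CON, -0.74 (-2.00 to 0.42) for GSK484 against NT and -1.56 (-3.15 to -0.29) for CON against NT. The last of these left out no difference, below the minimum of 1 CPM. The sums of both genes were 110 in GSK484, 109 in CON and 135 in NT, whole within 0.01, while the single values in CON and NT were not whole, as they are where reads were divided between the copies. SERPINB4 took 11 of the 110 summed counts in GSK484, 6.48% of them in CON and 12.7% in NT. The log2 fold of the sum was 0.24 (-0.15 to 0.64) for GSK484 against CON, -0.42 (-0.80 to -0.05) for GSK484 against NT and -0.66 (-1.04 to -0.29) for CON against NT. The sum does not depend on how reads were divided between the copies. The trend on GC content described above was not removed from the sum, and at SERPINB3 the fitted trend alone was -0.105 for GSK484 against NT and -0.185 for CON against NT, the first of these larger in size than the bound of -0.05.

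SERPINB8 also had a value that was not whole, 2227.62 in CON, and the remainder was in its 18q21 neighbour HMSD, with which it summed to 2299. HMSD took 2.07% of this sum in GSK484, 3.10% in CON and 1.5% in NT, so HMSD held a small share of it in every library.

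Of 21 serine and granule proteases that serpins of clade B or other clades inhibit, 5 reached the minimum level, and 8 were at 0 in all 3 libraries. Of the targets of SERPINB1 and SERPINB6 named above, neutrophil elastase (ELANE) and cathepsin G (CTSG) had 0 counts in GSK484, CON and NT. Proteinase 3 (PRTN3) had 0 counts in GSK484 and CON and 1 in NT. GZMB, the target of SERPINB9, had at most 0.0701 CPM in any library. FURIN, the target of SERPINB8, had 116 CPM in GSK484, 112 CPM in CON and 112 CPM in NT. PLAU, the urokinase that SERPINB2 inhibits, had 178 CPM in GSK484, 142 CPM in CON and 132 CPM in NT, a log2 fold of 0.32 (0.28 to 0.35) for GSK484 against CON and 0.43 (0.39 to 0.47) for GSK484 against NT. The protease was thus highest in GSK484, where its inhibitor had 6 counts. A list of 16 cathepsins and cystatins held targets of SERPINB3 and SERPINB13 together with cystatins, which inhibit such proteases, and the aspartic protease CTSD, and 15 of the 16 were measured. Relative to CON, 2 of this mixed list were higher in GSK484 and 7 lower by more than counting error, beside 54.3% of all genes in either direction. The median log2 fold of the list was -0.07. CTSL, cathepsin L, had 78.2 CPM in GSK484, 82.0 CPM in CON and 80.5 CPM in NT. CSTB, a cystatin that restrains cathepsins in the cytoplasm, had 312 CPM in GSK484, 418 CPM in CON and 330 CPM in NT, a log2 fold of -0.42 (-0.45 to -0.40) for GSK484 against CON and -0.08 (-0.11 to -0.06) for GSK484 against NT. The other genes named by the same rule of size were CTSO (log2 fold 0.43), CST6 (0.35) and CTSD (-0.24), and among the serine proteases KLK5 (-0.22), ST14 (-0.10) and PLAT (-0.07).

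Of 20 serpins of other clades, which are mostly secreted, 9 were measured. Relative to CON, 4 were higher and 2 lower in GSK484 beyond counting error, beside 54.3% of all genes in either direction. Past the size minimum was 1 in each direction, beside 9.0% of all genes as higher and 4.45% as lower. SERPINI1, or neuroserpin, had 2.95 CPM in GSK484, 2.06 CPM in CON and 3.38 CPM in NT. This gives a log2 fold of 0.52 (0.24 to 0.81) for GSK484 against CON, -0.20 (-0.46 to 0.07) for GSK484 against NT and -0.71 for CON against NT, past the size minimum as lower. SERPINA3, the antichymotrypsin of acute inflammation, had 800.1 CPM in GSK484, 1030 CPM in CON and 936.5 CPM in NT, a log2 fold of -0.37 (-0.38 to -0.35) for GSK484 against CON and -0.23 (-0.24 to -0.21) for GSK484 against NT. SERPINE2 (0.29) and SERPINH1 (-0.11) were the others named by the rule. Of 10 measured caspases and other mediators of granule-induced death, GSDME (0.38) was past the size minimum as higher, beside 9.0% of all genes. BID (-0.36), the substrate of granzyme B, and CASP10 (-0.40) were past it as lower, beside 4.45% of all genes, while CASP1 had 0.19.

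Genes that flank the clusters were compared because SERPINB1 and SERPINB6 share a locus that SERPINB5 does not. Of 10 neighbours at 6p25, 8 were measured, and for CON against NT 5 were higher and 0 lower by more than counting error, beside 64.9% of all genes in either direction, and the median log2 fold was 0.22. For GSK484 against NT 3 were higher and 0 lower, with a median of 0.09, and for GSK484 against CON 1 was higher and 3 lower, with a median of -0.08. The neighbours named by the rule for GSK484 against CON were NQO2 (-0.22), WRNIP1 (-0.12), PSMG4 (-0.10) and TUBB2A (0.10). Of 9 neighbours at 18q21, 8 were measured. Beyond counting error 0 were higher and 3 lower for GSK484 against CON, 1 and 2 for GSK484 against NT, and 2 and 2 for CON against NT, with medians of -0.08, -0.05 and 0.01. Those named by the rule were PIGN (-0.19), TNFRSF11A (-0.16) and PHLPP1 (-0.15). These counts lie near the share of all genes or below it. The part of GC content in the values of the neighbours was not tested.

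Among 23 transcription factors reported to act on clade B serpin genes, 22 were measured. Relative to CON, 9 were higher in GSK484 and 7 lower by more than counting error, beside 54.3% of all genes in either direction. Past the size minimum were 1 and 4 of them, beside 9.0% and 4.45% of all genes, and the median log2 fold was 0.01. SPDEF (-0.66) and ELF3 (-0.61), both ETS factors of epithelia, and GRHL3 (-0.49) were lower, and HIF1A (0.50) was higher. HIF1A had 153 CPM in GSK484, 108 CPM in CON and 197 CPM in NT. It was past the size minimum as lower than in NT in both, with log2 folds of -0.36 and -0.87. Its GC content of 36.4% lies in the lowest sixth, whose median log2 folds were -0.15 and -0.29 in the same order. The trend on GC content was not removed from the transcription factors. ELF3 had 101 CPM in GSK484, 153 CPM in CON and 123 CPM in NT. The members measured beside them stayed within the size minimum between GSK484 and CON. TP63, the basal factor, had 34.7 CPM in GSK484, 31.5 CPM in CON and 34.2 CPM in NT, with a log2 fold of 0.14 (0.06 to 0.22) for GSK484 against CON.

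Squamous differentiation genes, which accompany SERPINB2, SERPINB3, SERPINB4, SERPINB7 and SERPINB13 in stratified epithelia, summed to 47.8 CPM in GSK484, 59.6 CPM in CON and 48.7 CPM in NT. Of 19 that were matched, 8 were measured for GSK484 against CON. Of these, 0 were higher and 6 lower by more than counting error, beside 54.3% of all genes in either direction. The median log2 fold was -0.36. Past the size minimum as lower were 4 of the 8, KRT13 (-0.91), SPRR1A (-0.59), KRT4 (-0.58) and CNFN (-0.50), beside 4.45% of all genes. For CON against NT 6 of 9 were higher and 0 lower, beside 64.9% of all genes in either direction, with a median of 0.35. Past the size minimum 5 of the 9 were higher and 0 lower, beside 6.91% and 14.5% of all genes. In the same comparison SERPINB3 was lower at -0.56 and SERPINB7 had 0.00. SERPINB3 had 0.19 for GSK484 against CON, with an interval that includes no difference. The comparisons of GSK484 with CON and of CON with NT share the CON library. The measured squamous genes have a GC content of 51.6% to 62.1%, above the 39.7% of SERPINB3 and the 40.5% of SERPINB7. With the trend on GC content and length removed, SERPINB3 had -0.38 (-0.78 to 0.01) and SERPINB7 0.17 (-0.004 to 0.35) for CON against NT. The trend was not removed from the squamous genes.

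The genes whose values over the 3 libraries were most like those of SERPINB8 were DDI2, ZNF134 and ZFAND6, and those most like SERPINB5 were CDS1, CAV1 and GTF2H1. Likeness was the distance between pairs of log2 folds, GSK484 and CON each against NT, among 8528 genes of at least 10 CPM. The nearest to SERPINB8 lay at 0.00185, with log2 folds of -0.08 and -0.18, and the nearest to SERPINB5 at 0.00336, with -0.12 and -0.19. With 3 libraries such likeness is common. Within a distance of 0.1 lay 773 genes for SERPINB8 and 748 for SERPINB5.

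The expected counts added up to 77220120 in GSK484, 92980847 in CON and 70555229 in NT. Between 12989 and 13026 genes reached 1 CPM in each library. The share of counts in 13 mitochondrial genes was 3.93% in GSK484, 5.22% in CON and 4.68% in NT. Whether it bears on the members was not tested. PADI4, the target of the inhibitor, had 0.603 CPM in GSK484, 0.680 CPM in CON and 0.659 CPM in NT, a log2 fold of -0.17 (-0.75 to 0.40) for GSK484 against CON. All 12 breast epithelial markers were measured, with summed levels of 17840 CPM in GSK484, 17020 CPM in CON and 16570 CPM in NT. Relative to CON, 7 were higher in GSK484 and 3 lower by more than counting error, beside 54.3% of all genes in either direction. Among them were KRT5 (0.26), CDH1 (-0.22), KRT14 (-0.31) and KRT19 (-0.44). Of 12 leukocyte and neutrophil markers, 3 were measured and 5 were at 0 in all libraries, PTPRC, CD3E, CD3D, MS4A1 and MPO. Among the measured ones CD14 had 6.3 CPM in GSK484, 9.2 CPM in CON and 7.8 CPM in NT, and was lower in GSK484 than in CON (-0.55). ITGAM had 1.08 CPM in GSK484, 0.78 CPM in CON and 1.07 CPM in NT. Fibroblast markers summed to 7.87 CPM in GSK484, 6.86 CPM in CON and 6.17 CPM in NT, with 1 of 8 measured. Endothelial markers summed to 1.05, 1.71 and 1.07 CPM in the same order, with CDH5 at -0.74 for GSK484 against CON. Of 6 adipocyte and erythroid markers none was measured.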

How the data were processed

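Gene tables of 3 libraries of MCF10Ca1h cells were used, 1 per group (GSK484, CON and NT). Per the labels' protocols, RNA was extracted with TRIzol, a stranded kit for total RNA was used and paired-end reads had 125 bp. Per the submitters' processing notes, RSEM and hg19 were used. The RSEM version, aligner, annotation release and strand setting were not given in the sources used here, so reads of antisense and overlapping genes cannot be told apart.

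Per the file headers, the deposited expected counts are estimates of reads per gene, not normalized and not always whole. The deposited TPM values take effective length into account and sum to a fixed total, per the file headers. FPKM values in the authors' tables were not used. Expected counts were rounded for intervals and scaled to CPM by TMM (edgeR 4.0.16, R 4.3.3). Log2 folds took a prior count of 0.5. Intervals are exact conditional (Clopper-Pearson) 95% intervals, and those of ratios between genes are normal approximations on the log scale from 4 counts. They cover counting error alone. PCR duplicates could not be told from molecules, and whether each library is a separate culture is not stated.

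The size minimum was a log2 fold of 0.32 with an interval that left out no difference and a larger CPM of at least 1, and a fold of 2 was also used. A gene was measured where the larger CPM of both libraries reached 1. The members and the 15 gene lists (186 entries, 2 not matched) were chosen with earlier results of these data known. Of each list, the text names up to 4 genes, those farthest from no difference between GSK484 and CON with an interval that leaves it out, and the 3 genes most alike were sought for the 2 members of at least 10 CPM with the largest absolute fold. Other list genes with values were named as known protease targets, marker genes or regulators after their values were seen.

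GC content came from GENCODE release 29 transcripts, known for 97.2% of measured genes, and promoters from RefSeq (GRCh38.p14), both used by gene and not by hg19 coordinates. The trend on GC content and effective length was a natural spline with 4 degrees of freedom, fitted to 8438, 8541 and 8418 protein-coding genes of at least 10 CPM (patsy 1.0.2, scipy 1.17.1, Python 3.11.15). Alternatives were total counts, DESeq2 1.42.0 size factors, other CPM minimums, TPM with pseudocounts of 0.1 and 1, a prior count of 2 and the trend removed. The calling rule was run on counts simulated with counting error alone, so this run cannot show how it fares with spread between cultures. The value of 1 marker gene is not reported here.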

Additional observations from a re-analysis of the deposited data

How the results depend on the processing

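No paired analysis was possible because each group has 1 library, and leaving out a library was likewise not possible. Counts of members called are small, so 1 gene moves them. With no CPM minimum, 1 member was lower in GSK484 than in CON (SERPINB2, none otherwise) and 2 were lower in CON than in NT (SERPINB3 and SERPINB4, 1 otherwise). With TPM and a pseudocount of 0.1, 1 member was lower in GSK484 than in NT (SERPINB3). The count of members lower in CON than in NT was 0 with a minimum of 10 CPM (4 members tested), 0 once the trend on GC content and length was removed and 0 with a fold minimum of 2. With the trend removed, the log2 ratio of SERPINB6 to SERPINB5, an alternative chosen after seeing the data, was 0.059 for GSK484 against CON (-0.055 otherwise), 0.222 for GSK484 against NT (0.304) and 0.165 for CON against NT (0.359). Of 165 values of single members under the alternatives that can move a fold, 140 stayed within their interval and 25 moved beyond it. The wide intervals of SERPINB2, SERPINB4 and SERPINB13 leave much room, so this count says little about them. SERPINB5, with a narrow interval, moved beyond it for GSK484 against CON and for CON against NT with total counts, with TPM and with the trend removed. TPM with a pseudocount of 0.1 shifted the median of all genes by 0.11 for GSK484 against CON and by -0.12 for CON against NT, and SERPINB5 then had 0.18 and -0.32. For GSK484 against NT, SERPINB8 had 0.05 under that scale and -0.08 by CPM. Depth limits SERPINB2, SERPINB4 and SERPINB13, with at most 23 counts in a library. The lack of replicates limits every comparison.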
